A study of Mus musculus with 35 samples.

Results

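The 9 genes described here encode receptor chains through which blood-forming cells read myeloid growth factors, and they were taken by name from the 19138 genes counted. They are Epor, Csf3r, Csf2rb, Csf2rb2, Csf2ra, Il3ra, Il5ra, Il6st and Il6ra, and all 9 passed the filter on low counts. RNA was counted in mouse LT-HSCs, long-term blood stem cells that renew themselves and feed every blood lineage, in 35 libraries of 1000 sorted cells each. The groups cross the kinase mutation JAK2V617F, here JAK2-VF, with loss of Ezh2, which encodes the enzyme of the PRC2 silencing complex. They were 6 JAK2-VF Ezh2-null libraries (SclCre, JAK2V617F, Ezh2 -/-), 8 JAK2-VF Ezh2-het (SclCre, JAK2V617F, Ezh2 +/-), 6 JAK2-VF (SclCre, JAK2V617F, Ezh2 +/+), 4 Ezh2-null (SclCre, Ezh2 -/-), 7 Ezh2-het (SclCre, Ezh2 +/-) and 4 control (SclCre, Ezh2 +/+). Every group, the control included, carried SclCre, a Cre recombinase driven from the blood stem cell gene Scl. The labels tie no library to an animal, and each p-value therefore reflects how far these libraries scatter.

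None of these receptors has kinase activity of its own. The assembled complexes rely on JAK2 or a related JAK kinase bound inside the cell, which phosphorylates STAT transcription factors once ligand brings the chains together. Epor, the erythropoietin receptor, and Csf3r, the G-CSF receptor, pair with themselves. The receptors for IL-3, GM-CSF and IL-5 each join a private alpha chain (Il3ra, Csf2ra, Il5ra) to the shared beta chain Csf2rb, and mice carry a copy of that beta chain, Csf2rb2, which serves IL-3 alone. Il6st encodes gp130, the signalling chain of the IL-6 family, which Il6ra brings to IL-6.

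Total counts ran from 13.6 to 48.6 M per library, with 14 libraries from batch 1 and 21 from batch 2. Sex was uneven, with 2 batch 1 females and 4 batch 2 males among JAK2-VF libraries and females alone among controls. All 15 LT-HSC markers looked at, among them Procr, Hlf and Mllt3, had counts in every library. Of every 100 counts of Ezh2, a part of the gene counted on its own held 0 in all 6 JAK2-VF Ezh2-null libraries, 4.08 to 8.50 in JAK2-VF Ezh2-het, 6.34 to 9.27 in JAK2-VF, 0 to 0.478 in Ezh2-null, 0 to 9.497 in Ezh2-het and 6.02 to 8.72 in control libraries. The library labelled Ezh2-het batch 1 replicate 3 thus had none of this part, and replicate 1 of the same group and batch, labelled male, had 391 CPM of Xist, the RNA of the inactive X chromosome, against 0.45 to 14.4 CPM in the other 14 libraries labelled male and 590 to 1351 CPM in the 20 labelled female. The fit has a term for sex as labelled. The Csf2rb change in JAK2-VF Ezh2-het against Ezh2-het libraries and the averaged Csf2ra change are therefore also given without these 2 libraries. The main fit, which gives the other log2 values unless stated, includes them. In bulk RNA from sorted cells, fewer cells with a transcript and less of it per cell cannot be told apart.

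Csf2rb and Csf2rb2 are near copies that lie side by side on chromosome 15, so how far their counts can be separated bears on every value below. Their coding sequences of 2691 bases (Csf2rb) and 2637 bases (Csf2rb2), from GENCODE M21 on GRCm38, were identical at 95.4% of 2629 aligned positions. Of all 50-base windows of the Csf2rb transcript, 18.9% also occur in that of Csf2rb2, as do 7.16% of all 100-base windows. Reads from such windows cannot be assigned to one gene by sequence, and how they were counted is not given in the sources used here. The first 90 coding bases are shown because they give the scale of the difference, with the 3 positions at which the copies differ in capitals.
Csf2rb: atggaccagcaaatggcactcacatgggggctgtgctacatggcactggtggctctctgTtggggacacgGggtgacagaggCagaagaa
Csf2rb2: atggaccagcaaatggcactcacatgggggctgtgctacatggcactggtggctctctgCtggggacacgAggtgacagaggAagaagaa
The longest coding stretch that both genes share without a difference, 242 bases from base 2083 of each coding sequence, is shown because no read within it can tell them apart.
Csf2rb and Csf2rb2: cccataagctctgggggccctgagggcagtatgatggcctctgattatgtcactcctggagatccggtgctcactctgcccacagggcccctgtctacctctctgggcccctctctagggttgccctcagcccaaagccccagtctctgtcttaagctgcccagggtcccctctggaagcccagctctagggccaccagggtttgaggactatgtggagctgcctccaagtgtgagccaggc

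Set per length of the gene and as a median over libraries, LT-HSCs held most RNA of the GM-CSF receptor alpha chain. They held almost none of the IL-5 receptor alpha chain. The level of Csf2ra was a median of 32.5 CPM per kb over the 35 libraries, where CPM is counts scaled to a normalised library total of 1 M. Csf3r had 18.2, Csf2rb 13.7, Epor 7.27 and Il3ra 6.53 CPM per kb. Il6st at 3.92, Csf2rb2 at 3.69 and Il6ra at 2.61 CPM per kb formed the lower end. Il5ra followed with a median of 0. Neighbours in this order overlapped between single libraries, with the exception of Il6ra and Il5ra, so the order of overlapping neighbours is not firm. The first place of Csf2ra did not hold in every library. In batch 1 the JAK2-VF Ezh2-null libraries had less Csf2ra (12.52, 20.84 and 19.79 CPM per kb) than Csf2rb (27.77, 22.35 and 27.06). In batch 2 the same group had more Csf2ra (33.42, 32.28 and 38.35) than Csf2rb (19.35, 17.49 and 17.48). The place of Csf2rb changed with the genotype, as its mean was 21.9 ± 4.62 in JAK2-VF Ezh2-null, 18.4 ± 2.34 in JAK2-VF Ezh2-het and 16.2 ± 2.71 CPM per kb in JAK2-VF libraries (SD, n = 6, 8 and 6), against 4 ± 1.64 in Ezh2-null, 5.16 ± 1.33 in Ezh2-het and 5.85 ± 2.33 in control libraries (SD, n = 4, 7 and 4).

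**Figure D1:**
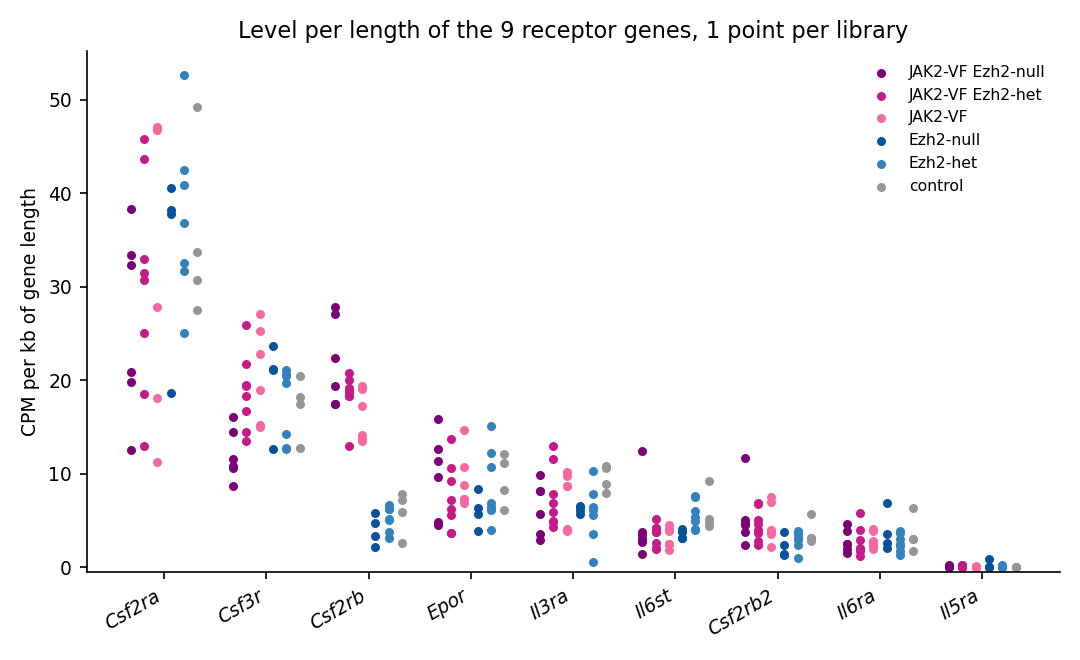
Level of the 9 receptor genes as CPM per kb of gene length, with 1 point per library and colours for the 6 genotype groups. Csf2ra has the highest median, 32.5, and Il5ra lies at or near 0. Csf2rb is the gene whose 3 JAK2-VF groups sit apart from the 3 groups without it.

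Csf2rb, the chain shared by the IL-3, GM-CSF and IL-5 receptors, was the receptor gene that rose with JAK2-VF at every Ezh2 genotype. Its level was 83.3 to 132.3 CPM in the 6 JAK2-VF Ezh2-null libraries (median 99.4), 61.8 to 98.7 in the 8 JAK2-VF Ezh2-het libraries (median 89.3) and 64.3 to 92.1 in the 6 JAK2-VF libraries (median 74.9). In Ezh2-null libraries it was 15.8, 22.7, 10 and 27.8 CPM, in the 7 Ezh2-het libraries 14.7 to 31.6 (median 24.5), and in control libraries 37.2, 33.96, 12.2 and 28.2. All 20 libraries with JAK2-VF lay above all 15 without it, and the share of all genes that separate in this way was not counted.

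**Figure D2:**
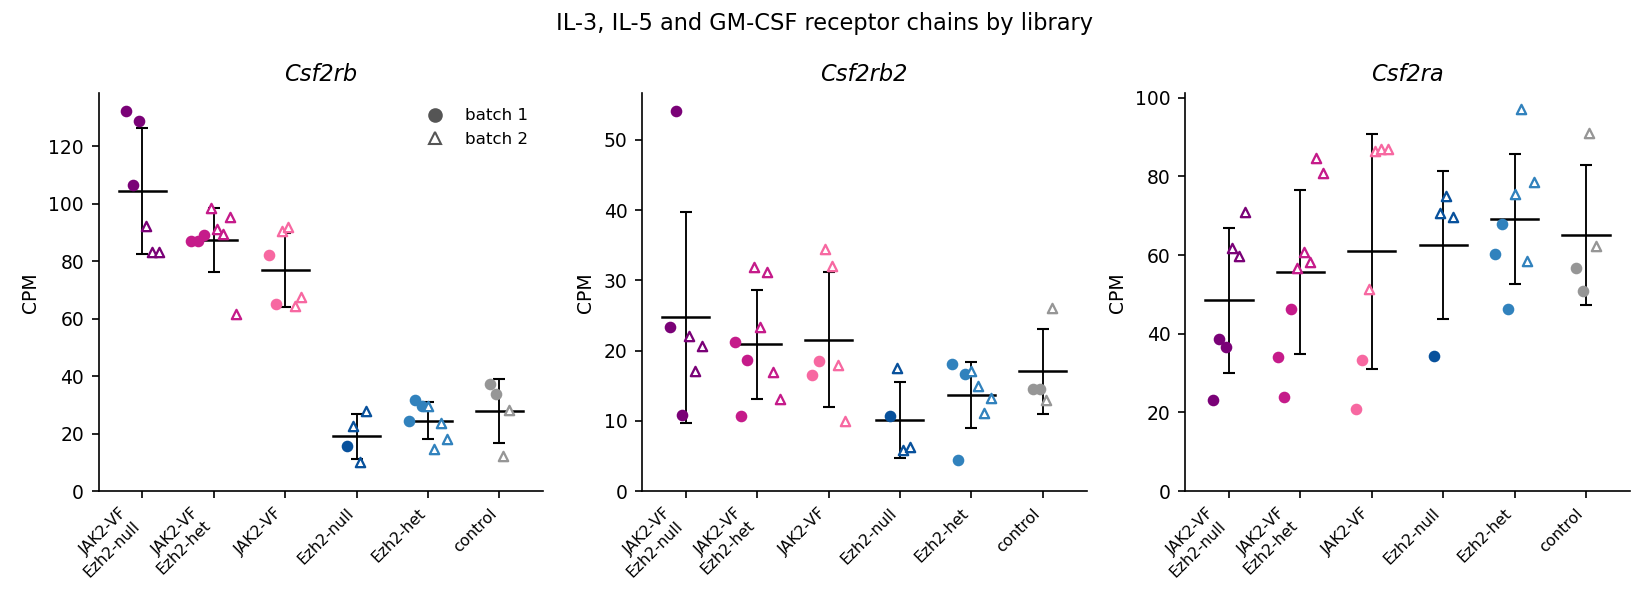
CPM of Csf2rb, Csf2rb2 and Csf2ra in each library by group, filled circles for batch 1 and open triangles for batch 2, with the group mean as a line and the SD as a bar. Csf2rb separates all 20 JAK2-VF libraries, the lowest at 61.8, from the other 15, the highest at 37.2, while Csf2rb2 and Csf2ra overlap between all groups compared.

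The log2 change of Csf2rb was 2.28 ± 0.26 (SE) in JAK2-VF Ezh2-null against Ezh2-null libraries, a 4.86-fold rise (edgeR adjusted p = 1.1e-06). It was 1.83 ± 0.19 in JAK2-VF Ezh2-het against Ezh2-het libraries, or 3.56-fold (edgeR adjusted p = 2.11e-07), and 1.65 ± 0.26 in JAK2-VF against control libraries, or 3.14-fold (edgeR adjusted p = 0.000245). Without the 2 doubted Ezh2-het libraries the middle value was 1.84 ± 0.23 (edgeR adjusted p = 4.01e-06). Csf2rb was the 1 of 9 receptor genes called in each comparison, against 4.84% of all genes tested in JAK2-VF Ezh2-null against Ezh2-null, 9.05% in JAK2-VF Ezh2-het against Ezh2-het and 4.22% in JAK2-VF against control libraries. Groups that do not overlap in CPM, as those of Csf2rb did not, were found for 6.84%, 1.43% and 6.26% of all genes in the same comparisons. The change in JAK2-VF against control libraries was not called when these 2 groups alone were fitted (log2 1.05 ± 0.34, edgeR adjusted p = 0.1), nor in batch 1 alone (1.05 ± 0.23, edgeR adjusted p = 0.0693), where the levels were 82.3 and 65.2 CPM in JAK2-VF and 37.2 and 33.96 CPM in control libraries. With these 2 groups alone the sex term leaves the comparison to batch 1, so these 2 fits are not separate results. In batch 2 alone the change was 2.29 ± 0.40 (edgeR adjusted p = 0.0168). There the JAK2-VF libraries were all male and the controls all female, so the value rests on a sex term estimated from the other groups.

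**Figure D3:**
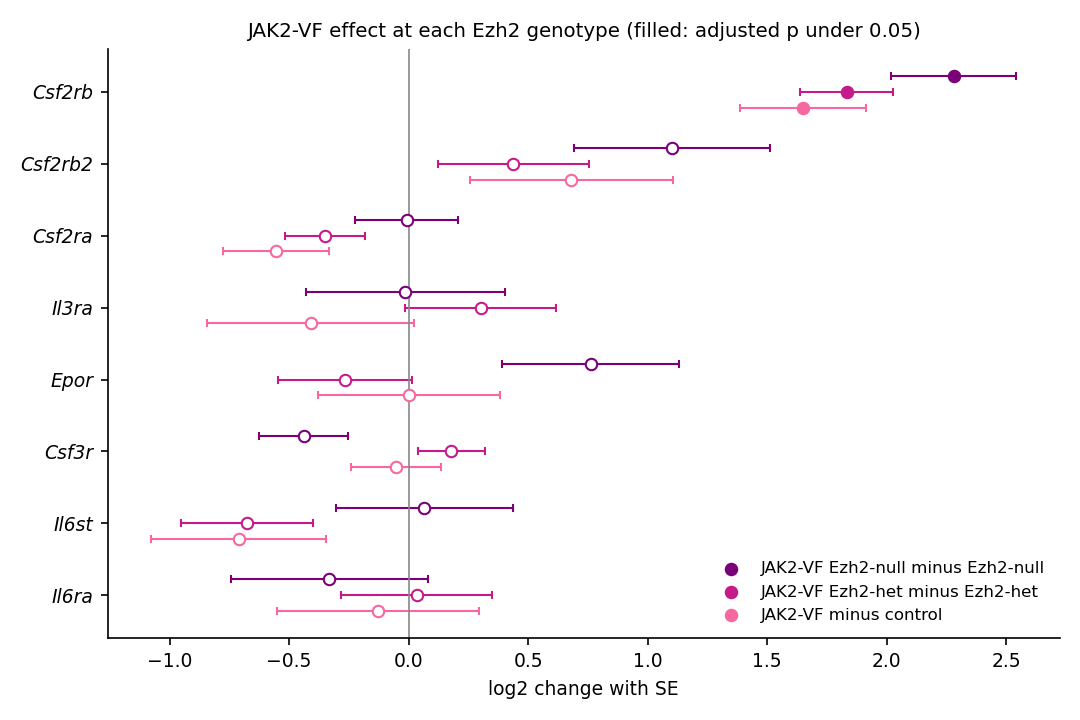
Log2 change with its SE for 8 receptor genes, with JAK2-VF minus without, at each Ezh2 genotype; filled points had an edgeR adjusted p under 0.05. Csf2rb, at 2.28, 1.83 and 1.65, is the gene with filled points, and Il5ra is left out because most of its libraries had no counts.

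Marker genes of myeloid cells, which also carry these receptors, were read beside Csf2rb. The 20 neutrophil and monocyte markers summed to 1025 to 7787 CPM in JAK2-VF Ezh2-null, 1229 to 13944 in JAK2-VF Ezh2-het, 2107 to 19018 in JAK2-VF, 1690 to 3996 in Ezh2-null, 826.3 to 5423 in Ezh2-het and 2855 to 8176 in control libraries. These ranges overlapped between all groups. In the average over the Ezh2 genotypes, 18 of the 20 had a positive log2 change, with a median of 0.69 beside -0.01 for all genes. The median was 0.985 in JAK2-VF Ezh2-null against Ezh2-null libraries and 0.74 in JAK2-VF Ezh2-het against Ezh2-het libraries, each with 18 of 20 positive, and 0.09 in JAK2-VF against control libraries, with 12 of 20 positive. Of the 20, 1 passed the test in the average, Cd68, a lysosomal protein gene of macrophages, which rose (log2 0.83 ± 0.19, edgeR adjusted p = 0.00106). The 13 markers of eosinophils, basophils and mast cells measured summed to 13.3 to 417.7 CPM in JAK2-VF Ezh2-null, 9.2 to 379.7 in JAK2-VF Ezh2-het, 7.1 to 178.3 in JAK2-VF, 8.1 to 731.1 in Ezh2-null, 0.1 to 37.8 in Ezh2-het and 12.5 to 1092 in control libraries. Of them Prss34, Mcpt8 and Gzmb, protease genes of basophils and other granule-bearing cells, rose in the average (edgeR adjusted p of at most 0.049), with no counts in 25, 13 and 28 of the 35 libraries. The median log2 change of the 13 was 0.90 in the average, with 10 positive. It was 1.27 in JAK2-VF Ezh2-null against Ezh2-null libraries, with 10 positive, and 2.47 in JAK2-VF Ezh2-het against Ezh2-het libraries, with 12 positive. In JAK2-VF against control libraries it was -1.59, with 5 positive.

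Markers of other cell types were read in the same average. Of 16 erythroid markers 5 rose and 6 fell, with a median log2 change of -0.20. Gata1, an erythroid and megakaryocyte transcription factor gene, rose (log2 1.71 ± 0.25, edgeR adjusted p = 5.01e-06), as did Rhag, a red cell membrane protein gene (0.92 ± 0.17, edgeR adjusted p = 9.97e-05). Among those that fell were Hba-a1 (-6.81 ± 0.89, edgeR adjusted p = 1.35e-06) and Slc4a1 (-6.20 ± 1.05, edgeR adjusted p = 4.57e-05). These had no counts in 10 and 21 of the 35 libraries. Of 11 megakaryocyte markers tested 2 rose, Gp1ba (0.85 ± 0.21, edgeR adjusted p = 0.00263) and Pf4 (1.34 ± 0.48, edgeR adjusted p = 0.0403), both platelet protein genes, and Selp fell, with a median of 0.38. Of 11 lymphoid markers tested 0 rose and 2 fell, Dntt and Klrb1c, a natural killer cell receptor gene (-1.82 ± 0.28, edgeR adjusted p = 8.89e-06), with a median of -0.68. The 15 lymphoid markers measured summed to 54.9 to 79.8 CPM in JAK2-VF libraries, all below the 126.1 to 164.9 CPM of control libraries. The sums overlapped between JAK2-VF Ezh2-null (64.5 to 148.0) and Ezh2-null libraries (99.2 to 120.8). They also overlapped between JAK2-VF Ezh2-het (65.4 to 101.3) and Ezh2-het libraries (89.6 to 209.2). Of 10 endothelial and stromal markers tested 0 rose and 2 fell, Cxcl12 and Cldn5, a tight junction gene of endothelium (edgeR adjusted p = 2.18e-09), which had no counts in 11 of the 35 libraries. The median of the 10 was -0.35. Of the 15 LT-HSC markers 10 fell and 0 rose, with a median of -0.29. Among those that fell were Mllt3 (-1.21 ± 0.08, edgeR adjusted p = 1.94e-13), Hlf (-0.78 ± 0.09, edgeR adjusted p = 3.91e-08) and Procr (-0.89 ± 0.10, edgeR adjusted p = 5.43e-08). The 15 LT-HSC markers summed to 4252 to 5790 CPM in JAK2-VF libraries, all below the 5985 to 6889 CPM of control libraries. The part of any of these marker shifts in the changes of the receptor genes was not tested.

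Csf2rb2, the IL-3-specific copy, rose with JAK2-VF only in the average over the Ezh2 genotypes. It had 10.9 to 54.1 CPM in JAK2-VF Ezh2-null (median 21.4), 10.8 to 31.9 in JAK2-VF Ezh2-het (median 19.9) and 10 to 34.5 in JAK2-VF libraries (median 18.2). Ezh2-null libraries had 10.8, 17.6, 5.87 and 6.33 CPM, the 7 Ezh2-het libraries 4.47 to 18.02 (median 15.02), and control libraries 14.6, 14.6, 12.97 and 26.1. All groups overlapped. Its log2 change was 1.1 ± 0.41 in JAK2-VF Ezh2-null against Ezh2-null, 0.44 ± 0.32 in JAK2-VF Ezh2-het against Ezh2-het and 0.68 ± 0.42 in JAK2-VF against control libraries (edgeR adjusted p = 0.123, 0.448 and 0.425). The JAK2-VF effect averaged over the 3 Ezh2 genotypes was 0.74 ± 0.21, or 1.67-fold (edgeR adjusted p = 0.00793), against 1.92 ± 0.13 for Csf2rb (edgeR adjusted p = 1.05e-12). In batch 1 alone the average for Csf2rb2 was 0.36 ± 0.48 (edgeR adjusted p = 0.838).

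Csf2rb counts per Csf2rb2 count averaged 5.42 ± 3.38 in JAK2-VF Ezh2-null, 4.65 ± 1.66 in JAK2-VF Ezh2-het, 4.06 ± 1.55 in JAK2-VF, 2.21 ± 1.46 in Ezh2-null, 2.35 ± 2.12 in Ezh2-het and 1.73 ± 0.83 in control libraries (SD). The ratios ran from 1.97 to 11.8 in JAK2-VF Ezh2-null and from 1.29 to 4.39 in Ezh2-null libraries, and from 2.87 to 8.11 in JAK2-VF Ezh2-het and from 0.98 to 7.08 in Ezh2-het libraries, so both of these pairs of groups overlapped. The ratios of the 6 JAK2-VF libraries, 2.63 to 6.74, all lay above those of the 4 control libraries, 0.94 to 2.55. Whether the changes of the copies differ was not tested, and reads shared between them enter both counts in a way that is not known.

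**Figure D4:**
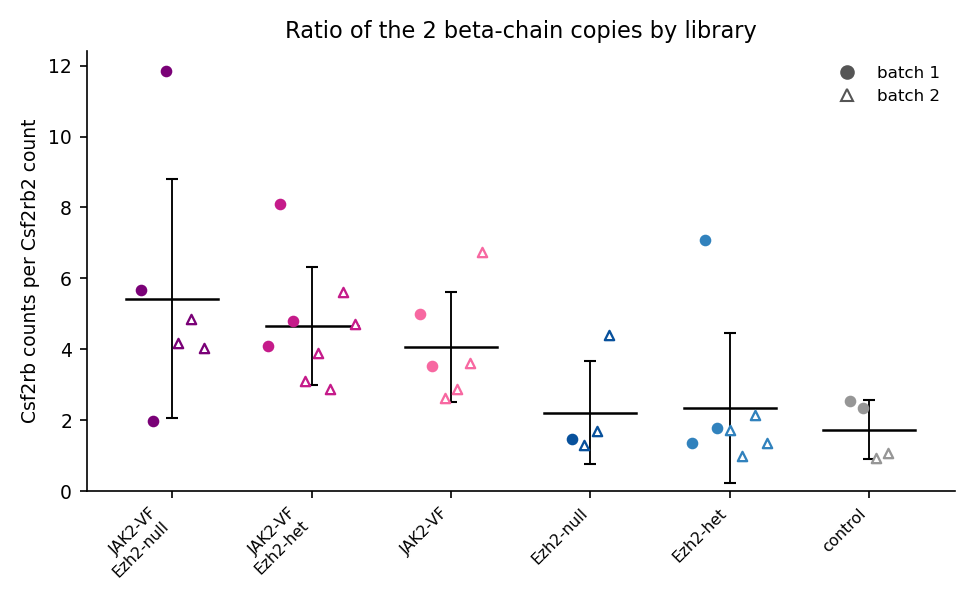
Csf2rb counts per Csf2rb2 count in each library by group, filled circles for batch 1 and open triangles for batch 2, with the mean as a line and the SD as a bar. Group means run from 4.06 to 5.42 with JAK2-VF and from 1.73 to 2.35 without it, with JAK2-VF libraries (2.63 to 6.74) above control libraries (0.94 to 2.55) and overlap in the 2 other pairs of groups that differ by JAK2-VF alone.

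Csf2ra, the GM-CSF-specific alpha chain, fell slightly in the average over the Ezh2 genotypes. Its level was 23.2 to 70.9 CPM in JAK2-VF Ezh2-null (median 49.1), 23.9 to 84.7 in JAK2-VF Ezh2-het (median 57.5) and 20.8 to 86.9 in JAK2-VF libraries (median 68.9). In Ezh2-null libraries it was 34.5, 70.6, 75.0 and 69.8 CPM, in Ezh2-het libraries 46.2 to 97.2 (median 67.9), and in control libraries 56.7, 50.8, 90.9 and 62.2. The groups overlapped, and batch 1 lay below batch 2 in each of them, with means of 32.8 and 64.1 CPM in JAK2-VF Ezh2-null, 34.8 and 68.2 in JAK2-VF Ezh2-het, 27.1 and 77.9 in JAK2-VF, 34.5 and 71.8 in Ezh2-null, 58.1 and 77.5 in Ezh2-het and 53.8 and 76.6 in control libraries. The averaged log2 change was -0.31 ± 0.11, or 0.81-fold (edgeR adjusted p = 0.0377). It was not called within batch 1 (-0.67 ± 0.28, edgeR adjusted p = 0.233) or batch 2 (-0.15 ± 0.11, edgeR adjusted p = 0.411), nor without the 2 doubted libraries (edgeR adjusted p = 0.0652). The call was also lost when any 1 of 10 libraries was left out, with edgeR adjusted p from 0.0512 to 0.0972. These were JAK2-VF Ezh2-null batch 1 replicate 1 and batch 2 replicate 2, JAK2-VF batch 1 replicate 1 and batch 2 replicate 1, Ezh2-null batch 2 replicates 1 and 2, Ezh2-het batch 1 replicate 2, and control batch 1 replicates 1 and 2 and batch 2 replicate 2. With limma-voom the adjusted p was 0.103.

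In this average 3 of the 9 receptor genes were called, Csf2rb and Csf2rb2 higher and Csf2ra lower. That is 33.3% of them, near the 25.3% of all genes tested that were called. The median log2 change of the 9 was -0.11, beside -0.01 for all genes.

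The promoters of Csf2rb2 and Csf2ra are shown because these genes moved in opposite directions in the average. Windows from 250 bases before to 50 after each start, from RefSeq on GRCm38.p6, were matched for 8 of the 9 genes, all but Csf2rb, and searched on both strands for TTCNNNGAA (bound by STAT factors), AGATAA (bound by the erythroid GATA factors) and GAGGAA (bound by the myeloid factor PU.1). Capitals mark the matches.
Csf2rb2 (chr15:78305672-78305971, minus strand): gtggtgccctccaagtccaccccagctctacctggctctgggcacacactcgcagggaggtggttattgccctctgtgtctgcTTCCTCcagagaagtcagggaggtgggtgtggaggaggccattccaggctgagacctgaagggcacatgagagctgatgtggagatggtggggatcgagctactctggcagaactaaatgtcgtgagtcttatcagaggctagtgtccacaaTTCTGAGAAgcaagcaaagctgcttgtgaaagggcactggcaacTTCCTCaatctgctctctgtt
Csf2ra (chr19:61228369-61228668, minus strand): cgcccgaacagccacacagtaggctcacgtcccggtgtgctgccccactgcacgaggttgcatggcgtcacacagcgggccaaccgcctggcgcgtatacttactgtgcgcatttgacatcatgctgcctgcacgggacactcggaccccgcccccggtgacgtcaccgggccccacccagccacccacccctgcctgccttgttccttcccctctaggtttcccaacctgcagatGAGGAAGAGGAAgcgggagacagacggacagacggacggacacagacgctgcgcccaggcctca
The STAT letters occurred in 1 of the 8 windows, that of Csf2rb2 from base -15 relative to the start, and in 8.3% of all 32851 windows of this length. The GATA letters occurred in 3 of the 8, Epor, Il5ra and Il6ra (11.2% of all), and the PU.1 letters in 5 of the 8, Csf3r, Csf2rb2, Csf2ra, Il5ra and Il6ra (28.3% of all). A match is a description of these letters and not a shown binding site.

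Il3ra, the IL-3-specific alpha chain, did not pass the test in any comparison. Its level was 4.11 to 13.7 CPM in JAK2-VF Ezh2-null (median 9.64), 5.98 to 17.99 in JAK2-VF Ezh2-het (median 8.87) and 5.44 to 14.3 in JAK2-VF libraries (median 12.1). Ezh2-null libraries had 9.11, 8.98, 8.55 and 7.99 CPM, Ezh2-het libraries 0.79 to 14.4 (median 8.48), and control libraries 11, 12.4, 15.1 and 14.8. All 4 Ezh2-null libraries lay below all 4 controls, as they also did for Il6st, so 2 of the 9 genes had groups that do not overlap in that comparison, against 2.81% of all genes. Neither gene passed the test there, with log2 values of -0.62 ± 0.47 for Il3ra and -0.47 ± 0.41 for Il6st. The averaged JAK2-VF effect was -0.04 ± 0.21, with an interval from -0.48 to 0.40 on the log2 scale.

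Il5ra, the alpha chain of the IL-5 receptor of eosinophils, had no counts in 26 of the 35 libraries and 247 counts in all. Of these, 99 lay in 1 Ezh2-null library, batch 2 replicate 2, at 3.19 CPM. In that library the markers of eosinophils, basophils and mast cells summed to 731.1 CPM, against 14.8, 14.3 and 8.1 CPM in the other Ezh2-null libraries. The control library with the highest sum of these markers, 1092 CPM, had 4 counts of Il5ra. The part of such cells in these counts was not tested, and no fold change is given for Il5ra.

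Epor, the receptor for the red-cell hormone erythropoietin, did not pass the test in any comparison. It had 8.27 to 28.9 CPM in JAK2-VF Ezh2-null (median 19.3), 6.63 to 25.1 in JAK2-VF Ezh2-het (median 12.2) and 12.6 to 26.8 in JAK2-VF libraries (median 14.7). Ezh2-null libraries had 7.08, 15.3, 10.3 and 11.5 CPM, Ezh2-het libraries 7.31 to 27.7 (median 12.5), and control libraries 11.2, 20.3, 22.1 and 15.1. The highest value was 0.76 ± 0.37 in JAK2-VF Ezh2-null against Ezh2-null libraries (edgeR adjusted p = 0.269), with an interval from -0.00 to 1.53. In JAK2-VF against control libraries it was 0.00 ± 0.38, with an interval from -0.78 to 0.78.

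Csf3r, the receptor for the neutrophil growth factor G-CSF, had its lowest median in JAK2-VF Ezh2-null cells. Its level was 35.2 to 65.0 CPM in JAK2-VF Ezh2-null (median 45.2), 54.7 to 105.0 in JAK2-VF Ezh2-het (median 76.1) and 60.6 to 109.8 in JAK2-VF libraries (median 84.3). Ezh2-null libraries had 85.9, 51.2, 95.8 and 85.4 CPM, Ezh2-het libraries 51.2 to 85.5 (median 79.8), and control libraries 73.6, 82.9, 51.6 and 70.5. The log2 value was -0.55 ± 0.17 in JAK2-VF Ezh2-null against JAK2-VF libraries (edgeR adjusted p = 0.193) and -0.44 ± 0.19 against Ezh2-null libraries (edgeR adjusted p = 0.183), and neither passed. Both passed with no term for sex, at -0.76 ± 0.18 (edgeR adjusted p = 0.0431) and -0.68 ± 0.20 (edgeR adjusted p = 0.0371). JAK2-VF Ezh2-null libraries were 5 females and 1 male, JAK2-VF libraries 2 females and 4 males, and Ezh2-null libraries 1 female and 3 males.

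Il6st, which encodes gp130, was lower with JAK2-VF at the Ezh2-het and intact genotypes without passing the test. It had 7.52 to 67.4 CPM in JAK2-VF Ezh2-null (median 17.6), 10.7 to 28.2 in JAK2-VF Ezh2-het (median 20.5) and 9.98 to 24.5 in JAK2-VF libraries (median 17.4). Ezh2-null libraries had 20.6, 17.01, 22.5 and 17.1 CPM, Ezh2-het libraries 21.4 to 41.2 (median 29.3), and control libraries 50.1, 28.2, 25.8 and 23.9. The JAK2-VF Ezh2-null library at 67.4 CPM, batch 1 replicate 1, stood apart from the other 5, the highest of which had 20.6 CPM. The log2 value was -0.68 ± 0.28 in JAK2-VF Ezh2-het against Ezh2-het and -0.71 ± 0.37 in JAK2-VF against control libraries (edgeR adjusted p = 0.126 and 0.316). The averaged log2 value was -0.44 ± 0.18 (edgeR adjusted p = 0.0761), and without that library -0.61 ± 0.15 (edgeR adjusted p = 0.00325). With limma-voom and quality weights, and all libraries kept, the averaged value was -0.62 ± 0.18 (limma adjusted p = 0.00896).

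Il6ra, the IL-6 binding chain, ranged from 4.10 to 22.8 CPM over the 35 libraries, with all groups overlapping. Its averaged JAK2-VF effect was -0.14 ± 0.21 on the log2 scale, with an interval from -0.58 to 0.30, and it did not pass in any comparison.

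**Figure D5:**
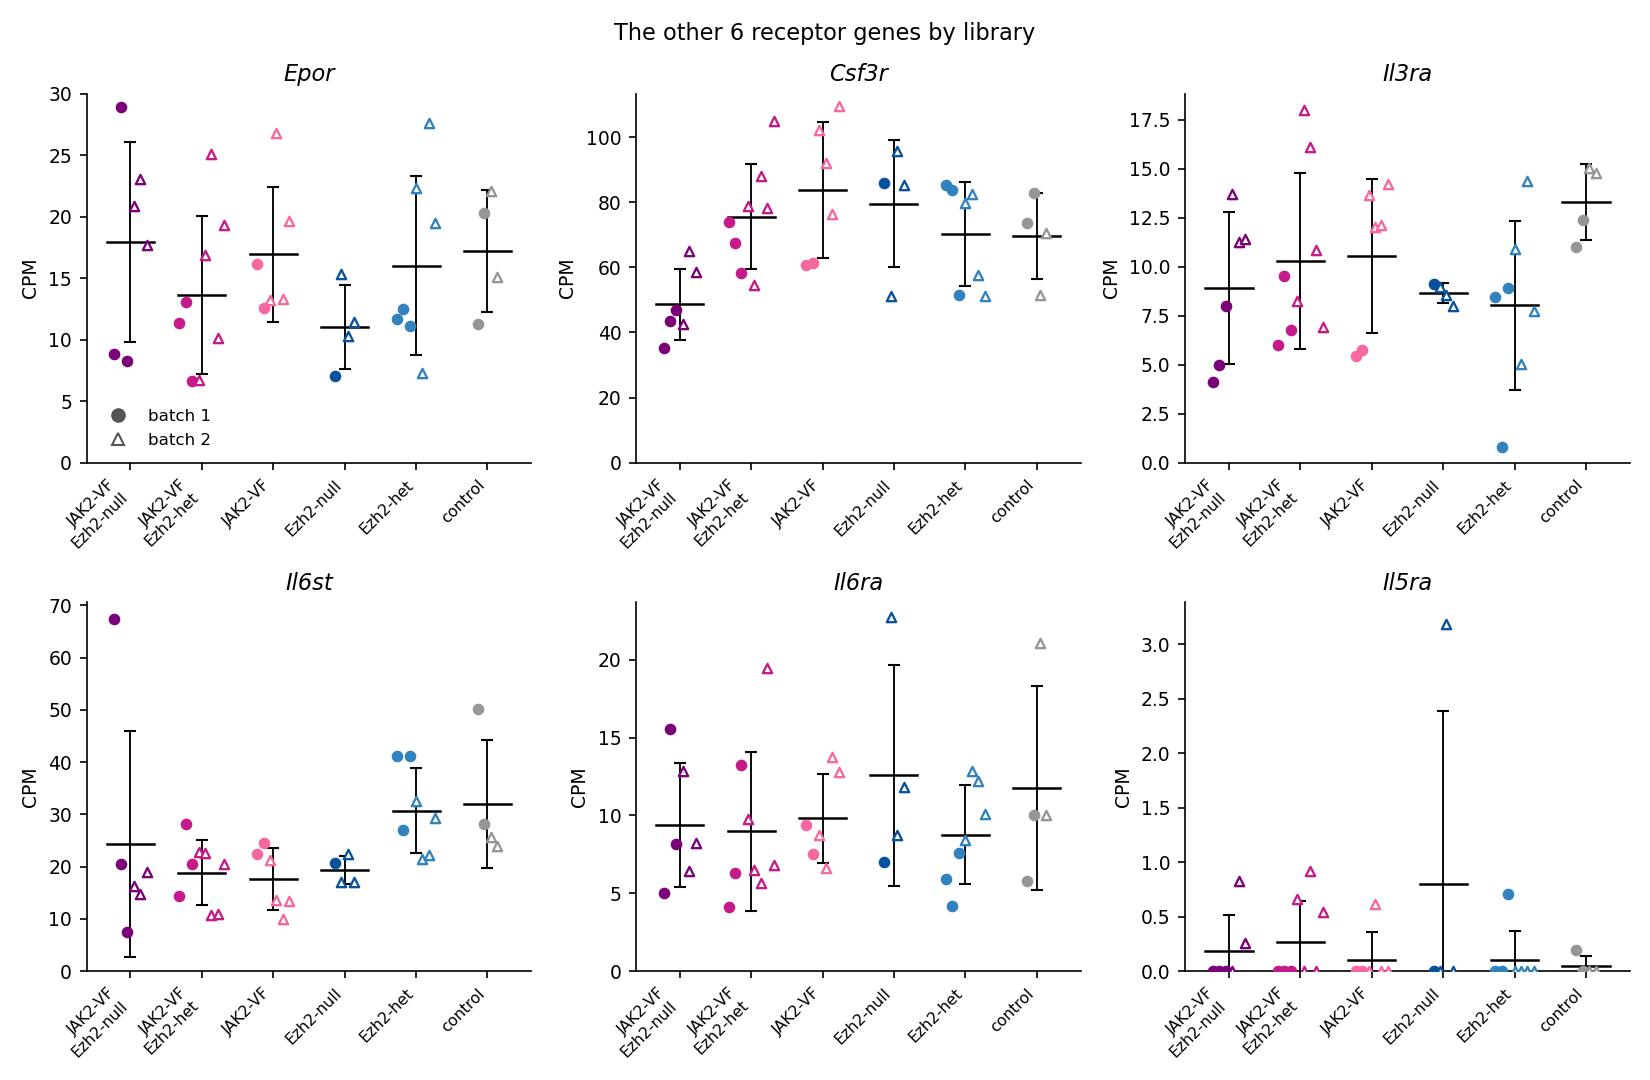
CPM of Epor, Csf3r, Il3ra, Il6st, Il6ra and Il5ra in each library by group, filled circles for batch 1 and open triangles for batch 2, with the mean as a line and the SD as a bar. Csf3r is lowest in JAK2-VF Ezh2-null libraries, 1 JAK2-VF Ezh2-null library stands out for Il6st at 67.4, and Il5ra is at 0 in most libraries.

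None of the 9 genes was called for loss of Ezh2 by edgeR, DESeq2 or limma-voom with terms for batch and sex. In JAK2-VF Ezh2-null against JAK2-VF libraries 0 of 9 were called, against 0.475% of all genes, and 1, Csf3r, had an unadjusted p under 0.05, as had 1066 of all genes. In JAK2-VF Ezh2-het against JAK2-VF libraries 0 of 9 and 0% of all genes were called, with 0 of the 9 and 578 of all genes at an unadjusted p under 0.05. DESeq2 called 44 of all genes there and limma-voom 0. In Ezh2-null against control libraries 0 of 9 were called, against 0.00669% of all genes (1 gene), and 1, Csf2ra, had an unadjusted p under 0.05 (log2 -0.53 ± 0.24, edgeR adjusted p = 0.834), as had 891 of all genes. In Ezh2-het against control libraries 0 of 9 and 0% of all genes were called, with 0 of the 9 and 772 of all genes at an unadjusted p under 0.05, and DESeq2 called 64 of all genes and limma-voom 0. Whether Ezh2 loss acted differently with JAK2-VF was tested as the difference of the Ezh2-null effects, where 0 of 9 were called, against 0.00669% of all genes. For Csf2rb this difference was 0.63 ± 0.38, with an interval from -0.15 to 1.41 on the log2 scale, an interval that includes 0.

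The other genes of the pathway are given for the same average over the Ezh2 genotypes, in which 25.3% of all genes were called. Of 14 feedback and negative regulators 2 rose, Socs2 (log2 2.13 ± 0.13, edgeR adjusted p = 4.02e-14) and Cish (1.46 ± 0.14, edgeR adjusted p = 1.27e-09), both STAT-induced inhibitors of cytokine receptors. Of 10 JAK and STAT genes 1 rose, Jak2 (0.53 ± 0.09, edgeR adjusted p = 2.38e-05), and 3 fell, Jak3 (-0.50 ± 0.08), Stat3 (-0.36 ± 0.07) and Stat2 (-0.36 ± 0.10), with edgeR adjusted p of at most 0.00482. How much of the Jak2 count comes from JAK2V617F itself, which every JAK2-VF group carries, was not tested. Of 9 ligands tested, Osm, the gp130 ligand oncostatin M, rose (1.80 ± 0.34, edgeR adjusted p = 0.00015) and Clcf1, another gp130-family cytokine, fell (-0.78 ± 0.20, edgeR adjusted p = 0.00413). Of 35 other cytokine and growth factor receptors 1 rose and 11 fell, among them Tnfrsf1b, a TNF receptor (-0.54 ± 0.09, edgeR adjusted p = 1.48e-05), and Il11ra1, the IL-11 receptor alpha chain (-0.51 ± 0.09, edgeR adjusted p = 5.14e-05). Of 16 STAT5 and STAT3 targets, Osm again among them, 6 rose and 6 fell; Ccnd1, a cyclin gene of cell-cycle entry (-0.85 ± 0.13, edgeR adjusted p = 5.2e-06), and Bcl6, a transcriptional repressor gene (-1.99 ± 0.32, edgeR adjusted p = 1.63e-05), were among those that fell. The median log2 change was -0.00063 for the feedback and negative regulators, -0.12 for the JAK and STAT genes, -0.33 for the ligands, -0.20 for the other receptors and 0.11 for the targets, beside -0.01 for all genes.

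Across the 35 libraries, the genes whose log2(CPM + 1) followed Csf2rb most closely were Dock10 (Pearson r = 0.911), Socs2 (r = 0.886) and Nfkb1, an NF-kB subunit (r = 0.883), among 9881 genes compared with batch means removed. Csf2rb2 was most like Deptor, a regulator of mTOR (r = 0.707), and Csf2ra most like Grina (r = 0.740). Il5ra was followed by P4ha1 (r = 0.602) and Epx, the eosinophil peroxidase gene (r = 0.548). Because Il5ra had no counts in 26 of the 35 libraries, its r values rest on few libraries. Its highest value, 3.19 CPM, lay in Ezh2-null batch 2 replicate 2. For Epor, Csf3r, Il3ra, Il5ra, Il6st and Il6ra the closest gene reached r of 0.60 to 0.70. These correlations describe libraries that fall into shared genotype groups and differ in sequencing depth. Among the receptor genes themselves, Csf2rb and Csf2rb2, which share sequence, had the highest r, 0.553, and Csf2rb and Csf2ra the lowest, -0.446.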

How the data were processed

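RNA was measured in 35 libraries of mouse LT-HSCs, each from 1000 sorted cells, per the labels' protocols. The authors deposited raw counts for each Entrez gene. STAR and build mm9 are named, per the submitters' processing notes. No source used here gives the aligner version, counting tool, annotation or strand setting. A separately counted part of Ezh2, at most 0.000935% of a library's counts, stayed out of library sizes and tests. Labels gave each library's group, batch, sex and number, and 0 value columns were left unused.

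Total counts were 13.6 to 48.6 M per library (median 24.9 M). The main test was edgeR 4.0.16 (R 4.3.3), a quasi-likelihood fit over the 35 libraries after TMM normalisation, modelling group, batch and sex. The low-count filter left 14945 of 19138 genes, and a call needed a Benjamini-Hochberg adjusted p under 0.05 over all genes tested. The SE came from the log2 change and F (log2 size over root F), and intervals at 95% used 27 residual degrees of freedom. The fit was also run on simulated counts with changed genes in JAK2-VF libraries only and no batch or sex effect. That run cannot show how the fit handles uneven batch and sex. CPM used TMM-normalised library sizes, and CPM per kb used the deposited gene lengths.

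All 9 receptor genes are named in every comparison. From each gene list, up to 4 called genes with the smallest adjusted p qualified, and some are not reported here. For likeness, 3 genes per receptor were taken by Pearson r of batch-centred log2(CPM + 1) among genes averaging a log2 CPM of 3 or more. The receptor genes and lists were chosen with earlier results of these data known. No 2 libraries of a group agreed within sampling noise.

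Alternatives were DESeq2 1.42.0 size factors and Wald test, no low-count filter, limma-voom (limma 3.58.1) with quality weights, no sex term, a replicate block, fits restricted to the compared groups, to either batch or to females, and fits leaving out each library. A fit without 2 doubted libraries was added after seeing the data. Promoter windows and gene names came from RefSeq, GRCm38.p6, and coding sequences from GENCODE M21 on GRCm38, used for sequence and names and not for the counts. Tables and plots used Python 3.11.15, pandas 2.3.3, numpy 2.4.6 and matplotlib 3.10.9.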

Additional observations from a re-analysis of the deposited data

Results flagged for a closer look

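In 11 of 54 combinations of receptor gene and group, 1 library lay far from the others of its group. Of the 11, 5 are for Il5ra, where most libraries had no counts. Chance alone gives about 1 in 20 for normally distributed values of 1 population. CPM need not be normal and the groups mix batches, so the 11 are not shown to be an excess. Csf2rb was low in JAK2-VF Ezh2-het batch 2 replicate 5, at 61.82 CPM, against 86.98 to 98.68 in the other 7. Csf2rb2 was high in JAK2-VF Ezh2-null batch 1 replicate 2, at 54.10 CPM against at most 23.38 in the other 5, and in control batch 2 replicate 4, at 26.08 CPM against 12.97 to 14.57. Csf2ra was low in Ezh2-null batch 1 replicate 1, at 34.45 CPM against 69.78 to 75.00, and this is the only Ezh2-null library of batch 1. Il6st was high in JAK2-VF Ezh2-null batch 1 replicate 1, at 67.43 CPM against 7.52 to 20.58, and in control batch 1 replicate 1, at 50.14 CPM against 23.87 to 28.23. Il5ra had 0.83 CPM in JAK2-VF Ezh2-null batch 2 replicate 2, 0.62 in JAK2-VF batch 2 replicate 2, 3.19 in Ezh2-null batch 2 replicate 2, 0.71 in Ezh2-het batch 1 replicate 3 and 0.19 in control batch 1 replicate 1, against at most 0.26 in the other libraries of each group.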

How the results depend on the processing

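Of the receptor values with an unadjusted p under 0.05, none changed sign under the settings tried. The number of receptor genes called in JAK2-VF against control libraries was 1, and 0 with the compared groups only or batch 1 alone; with both groups alone, the sex term leaves the comparison to batch 1. It was 1 in JAK2-VF Ezh2-null against Ezh2-null and 0 in JAK2-VF Ezh2-null against JAK2-VF libraries, and 2 and 1 with no term for sex. For the averaged JAK2-VF effect it was 3, and 1 in batch 1 alone. Leaving out 1 library gave 2 to 3 for the average, 1 in each JAK2-VF comparison and 0 elsewhere. Replicate numbers were not found to pair libraries, since over 32 same-numbered pairs the correlation of deviations was -0.13 to 0.08, none over 0.1. With the replicate block, 1 receptor gene was called in each JAK2-VF comparison, 3 in the average and 0 in the others. Counts over all genes moved more. In JAK2-VF Ezh2-null against Ezh2-null libraries 723 were called, and 421 with the replicate block, 252 with the compared groups only, 3 in batch 1, 373 in batch 2 and 1117 by DESeq2. In JAK2-VF Ezh2-het against Ezh2-het libraries 1353 were called, and 835 with the compared groups only, 176 in batch 1, 636 in batch 2 and 349 in females. In JAK2-VF against control libraries 631 were called, and 83 in batch 1, 38 in batch 2, 411 in females and 1003 by DESeq2. For the average 3774 were called, and 576 in batch 1 and 2150 in batch 2. In JAK2-VF Ezh2-null against JAK2-VF libraries 71 were called, and 22 with the compared groups only or in batch 2, 1 in batch 1, 8 in females and 193 by DESeq2. The 0 or 1 genes called for Ezh2 loss alone, JAK2-VF Ezh2-het against JAK2-VF libraries and the difference of effects became 44 to 97 by DESeq2 and stayed at 2 or fewer otherwise. Comparisons of Ezh2 loss without JAK2-VF rest on 4 Ezh2-null and 4 control libraries, and Il5ra on 247 counts. Except where a fit's own construction shows it, the cause of these moves was not tested. The fit without 2 doubted libraries was chosen after seeing the data. For females alone, some comparisons had too few libraries and give no value.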
